A study of Mus musculus with 35 samples.

Results

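The 37 genes described here encode proteins that carry a cell through mitosis, and they were taken as a list of gene symbols, matched by Ensembl identifier, from the 54752 genes in the tables. They fall into 8 roles: mitotic entry (Cdk1, Ccnb1, Ccnb2, Cdc25c, Plk1, Aurka), the chromosomal passenger complex (Aurkb, Birc5, Cdca8, Incenp), the spindle assembly checkpoint (Bub1, Bub1b, Ttk, Mad2l1), centromere and kinetochore (Cenpa, Cenpe, Cenpf, Ndc80, Nuf2, Spc24, Spc25), kinesins (Kif11, Kif15, Kif18b, Kif20a, Kif23, Kif2c, Kif4), spindle and chromosome structure (Top2a, Tpx2, Nusap1), cytokinesis (Prc1, Anln, Ect2, Racgap1) and partners of the anaphase-promoting complex (Cdc20, Ube2c). All 37 were measured in each of 35 RNA-seq libraries from fibroblasts that were being reprogrammed towards pluripotency.

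The cells were mouse embryonic fibroblasts at passage 2, taken from E13.5 embryos of males with an Oct4-GFP reporter allele (CBA/CaJ × C57BL/6J) crossed to females of a 129S substrain, whose number differs from label to label. They were infected with retroviruses for 48 hours and then kept in iCD3 medium with a Rock inhibitor. The arm named JEGS received Jdp2, Esrrb, Glis1 and Sall4 and was sampled on days 2, 4 and 6 (3 libraries). Each of the other 4 arms received 3 of the 4 factors and was sampled on days 0 to 7 (8 libraries each): without Esrrb, without Jdp2, without Glis1 and without Sall4. Every arm thus carries the reporter, retroviral vectors and the same medium, and no uninfected cells are compared here. In each arm 1 culture series was followed with 1 library a day, and a batch cannot be told apart from an arm. P-values between arms or days measure the spread of libraries around a shared day pattern. That spread may be technical or come from courses that differ between arms. P-values of slopes measure the spread around a straight line in each arm, which includes any bend in the course. The vector of 1 factor is left out in an arm, but the gene of that factor stays in the genome of the cells.

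The libraries held 1266379 to 3608456 counts. They were shallowest in JEGS (1266379 to 1682386) and without Esrrb (1377656 to 1651712) and deepest without Sall4 (1939226 to 3608456). The omitted factor was low in its own arm: Sall4 was at 0.33 to 7.37 TPM (a transcript level corrected for length and depth) without Sall4 and at 213 to 1887 TPM elsewhere. Glis1 was at 0.00 to 8.98 TPM without Glis1 and at 206 TPM or more elsewhere, Jdp2 at 10.9 to 43.5 against at least 278 TPM, and Esrrb at 6.18 to 70.5 against at least 594 TPM. Each of 10 fibroblast markers was above 1 TPM in every arm. Each of 6 epithelial markers also reached that level in at least 1 library of every arm, so this does not settle cell identity. None of the 1295 values of the 37 genes was 0, and they ranged from 0.29 to 262.8 TPM. Fewer than 10 reads lay behind 39 of the 296 values without Sall4, 14 of 296 without Glis1, 1 without Jdp2, 1 of 111 in JEGS and 0 without Esrrb.

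Cells enter mitosis when cyclin B and Cdk1 form an active kinase, a step pushed by Cdc25c, Plk1 and Aurka. Kinetochores then tie chromosomes to the spindle, the checkpoint holds the cell until all are attached, and Cdc20 with the anaphase-promoting complex releases it into anaphase and cytokinesis. Most of these genes are transcribed in late S phase and G2 and are repressed in resting cells, and their promoters are known for a CHR element (cell cycle genes homology region), bound by the DREAM and MuvB complexes, together with CCAAT boxes, bound by NF-Y. Genes of DNA replication are known rather for E2F sites. In a bulk library, fewer cells near mitosis and less of these transcripts per cell cannot be told apart.

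Promoters of 31 of the 37 genes were found in the RefSeq table for GRCm38.p6 (mm10), each holding 250 bases before and 50 after the gene's start. Spc24, Aurkb, Tpx2, Cdc25c, Kif20a and Incenp were not matched. The letters TTTGAA or TTCGAA were searched as the CHR, CCAAT as the CCAAT box and TTTCCCGC, TTTGGCGC, TTTCGCGC or TTTGCCGC as the E2F site, on both strands. A CHR match lay in 25 of the 31 promoters (80.7%) and in 19.4% of all 27025 promoters of that length. CCAAT matched in 23 (74.2%, against 37.9% of all promoters), and both together in 21 (67.7%, against 7.70%). E2F letters were found in 2 (6.45%, against 2.32%). Of 39 promoters of a list of other mitosis genes, 22 (56.4%) held CHR letters, 27 (69.2%) CCAAT, 17 (43.6%) both and 4 (10.3%) E2F letters. Of 27 promoters of a list of DNA replication genes, 6 (22.2%) held CHR letters, 17 (63.0%) CCAAT and 11 (40.7%) E2F letters. The promoter of the first gene of a role with both CHR and CCAAT letters is printed below for the first 6 roles, 5′ to 3′ on the gene's strand. The CHR and CCAAT matches are in capitals, and E2F matches are left in lower case. The remaining roles also hold such promoters, among them those of Prc1 and Cdc20, which are not printed. A match is a description of the letters, not a site shown to be bound.
Cdk1 (chr10:69352863-69353162, minus strand): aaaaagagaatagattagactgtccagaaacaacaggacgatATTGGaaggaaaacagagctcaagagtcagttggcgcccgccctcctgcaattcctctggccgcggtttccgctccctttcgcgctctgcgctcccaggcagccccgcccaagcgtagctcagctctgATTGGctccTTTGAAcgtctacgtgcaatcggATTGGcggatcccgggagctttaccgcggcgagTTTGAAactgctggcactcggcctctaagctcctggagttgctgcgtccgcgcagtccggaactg
Cdca8 (chr4:124936868-124937167, minus strand): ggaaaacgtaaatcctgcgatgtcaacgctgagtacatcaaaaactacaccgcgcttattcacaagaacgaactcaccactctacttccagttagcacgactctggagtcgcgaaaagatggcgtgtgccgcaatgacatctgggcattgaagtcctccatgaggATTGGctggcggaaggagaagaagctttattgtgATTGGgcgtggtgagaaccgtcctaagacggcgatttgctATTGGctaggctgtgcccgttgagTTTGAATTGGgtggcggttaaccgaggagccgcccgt
Bub1 (chr2:127831810-127832109, minus strand): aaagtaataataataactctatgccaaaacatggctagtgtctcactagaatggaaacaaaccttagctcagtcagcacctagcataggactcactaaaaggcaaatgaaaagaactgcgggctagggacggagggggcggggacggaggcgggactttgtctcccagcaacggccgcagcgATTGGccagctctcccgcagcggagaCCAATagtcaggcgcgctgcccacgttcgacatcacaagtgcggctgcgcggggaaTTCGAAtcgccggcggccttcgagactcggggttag
Cenpa (chr5:30666636-30666935, plus strand): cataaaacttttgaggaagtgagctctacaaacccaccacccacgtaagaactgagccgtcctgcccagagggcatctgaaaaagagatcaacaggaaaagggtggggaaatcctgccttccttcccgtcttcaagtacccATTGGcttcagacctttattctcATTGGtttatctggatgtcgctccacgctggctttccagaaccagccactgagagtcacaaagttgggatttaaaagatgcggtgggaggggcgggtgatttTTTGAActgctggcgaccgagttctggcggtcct
Kif11 (chr19:37376132-37376431, plus strand): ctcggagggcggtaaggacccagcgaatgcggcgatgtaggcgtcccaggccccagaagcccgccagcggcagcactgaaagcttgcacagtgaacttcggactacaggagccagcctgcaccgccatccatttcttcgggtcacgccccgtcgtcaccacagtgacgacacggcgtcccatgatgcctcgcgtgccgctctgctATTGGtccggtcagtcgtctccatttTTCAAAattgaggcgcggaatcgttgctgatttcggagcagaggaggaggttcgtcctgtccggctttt
Top2a (chr11:99024140-99024439, minus strand): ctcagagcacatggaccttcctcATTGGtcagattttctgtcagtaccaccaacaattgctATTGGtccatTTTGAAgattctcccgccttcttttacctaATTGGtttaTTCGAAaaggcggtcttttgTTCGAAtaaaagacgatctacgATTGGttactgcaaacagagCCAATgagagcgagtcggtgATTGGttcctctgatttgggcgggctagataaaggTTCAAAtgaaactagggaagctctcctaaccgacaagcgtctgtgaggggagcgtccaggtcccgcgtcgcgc
Counted to the first base of the match, the Cdk1 promoter holds CHR letters 71 and 15 bases before the start and CCAAT letters 208, 80 and 48 bases before it. In Kif11 the CHR letters lie 19 bases and the CCAAT letters 45 bases before the start. Top2a has 4 CHR and 6 CCAAT matches, the nearest of each 23 and 58 bases before the start. In Cdca8, Bub1 and Cenpa the CHR match lies after the start, at 13, 14 and 16 bases, and in Cdca8 the CHR match shares 1 base with the CCAAT match that follows it.

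The 37 genes were high in every leave-out arm on day 0, and the arms stood further apart from day 1 on. Their summed level without Sall4 was 1962 TPM on day 0, 1024 on day 1, 400.3 on day 2 and 202.9 on day 7, which is 0.103 times the level on day 0. Without Glis1 the sum went from 2021 TPM on day 0 to 436.6 TPM on day 5 and stood at 851 TPM on day 7. Both other leave-out arms dipped and then rose in part, and neither was back at its day 0 level on day 7. Without Jdp2 the sum was 2769 TPM on day 0, 1117 TPM on day 3 and 2216 TPM on day 7. Without Esrrb it was 2816 TPM on day 0, 1476 TPM on day 2, 2410 TPM on day 6 and 1798 TPM on day 7. JEGS was at 1246, 1310 and 2553 TPM on days 2, 4 and 6. Day 0 values of the arms lie between 1962 and 2816 TPM, so a difference among arms was already there on that day.

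**Figure D1:**
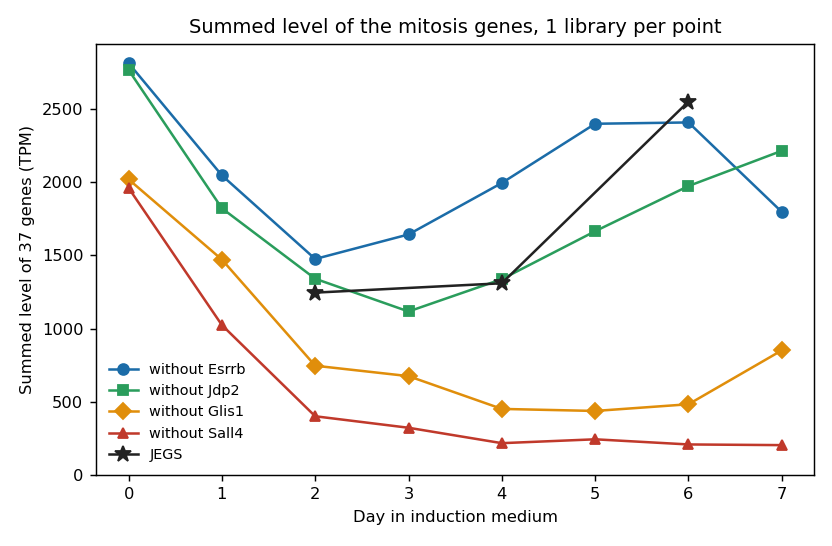
Summed TPM of the 37 mitosis genes (vertical axis) by day in induction medium (horizontal axis), with 1 point per library and 1 line per arm. The arm without Sall4 is lowest on every day and ends at 202.9 TPM, while the arms without Esrrb and without Jdp2 end at 1798 and 2216 TPM.

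Single genes followed the course of the sum closely without Sall4 and less evenly in the other arms. The median ratios between days given here are of TPM + 1, which draws ratios of low levels towards 1. Without Sall4 all 37 were highest on day 0, and all 37 were lower on day 7 than on day 0, with a median ratio of 0.129. Without Jdp2, 25 genes were lowest on day 3, and all 37 were higher on day 7 than on day 3, with a median ratio of 1.89. Without Esrrb, 35 of 37 were higher on day 6 than on day 2 (median ratio 1.75), and 32 of 37 were lower on day 7 than on day 5 (median ratio 0.706). In that arm 18 genes were highest on day 0 and 14 were lowest on day 2. On day 7, 31 were below their day 0 level and 6 above it. Without Glis1, 21 genes were lowest on day 5, and 34 of 37 were higher on day 7 than on day 5, with a median ratio of 2.25. In JEGS 36 of 37 were higher on day 6 than on day 4, with a median ratio of 2.06. These steps compare single libraries and carry no test, and the shares of all genes moving alike were not computed. Between libraries, the TPM and the reads of a gene can go different ways, and the edgeR tests used the reads.

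The lowest place was kept by 1 arm, while the highest changed hands. Without Sall4 was the lowest of the 4 leave-out arms for 22 genes on day 0, for 35 on day 2, for 36 on day 3 and for all 37 on day 7. Without Esrrb was the highest for 13 genes on day 0, when 17 were highest without Jdp2, for 34 on days 3 and 4 and for 36 on day 5, and for 8 on day 7, when 29 genes were highest without Jdp2. The shares of all genes so ranked were not computed.

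**Figure D2:**
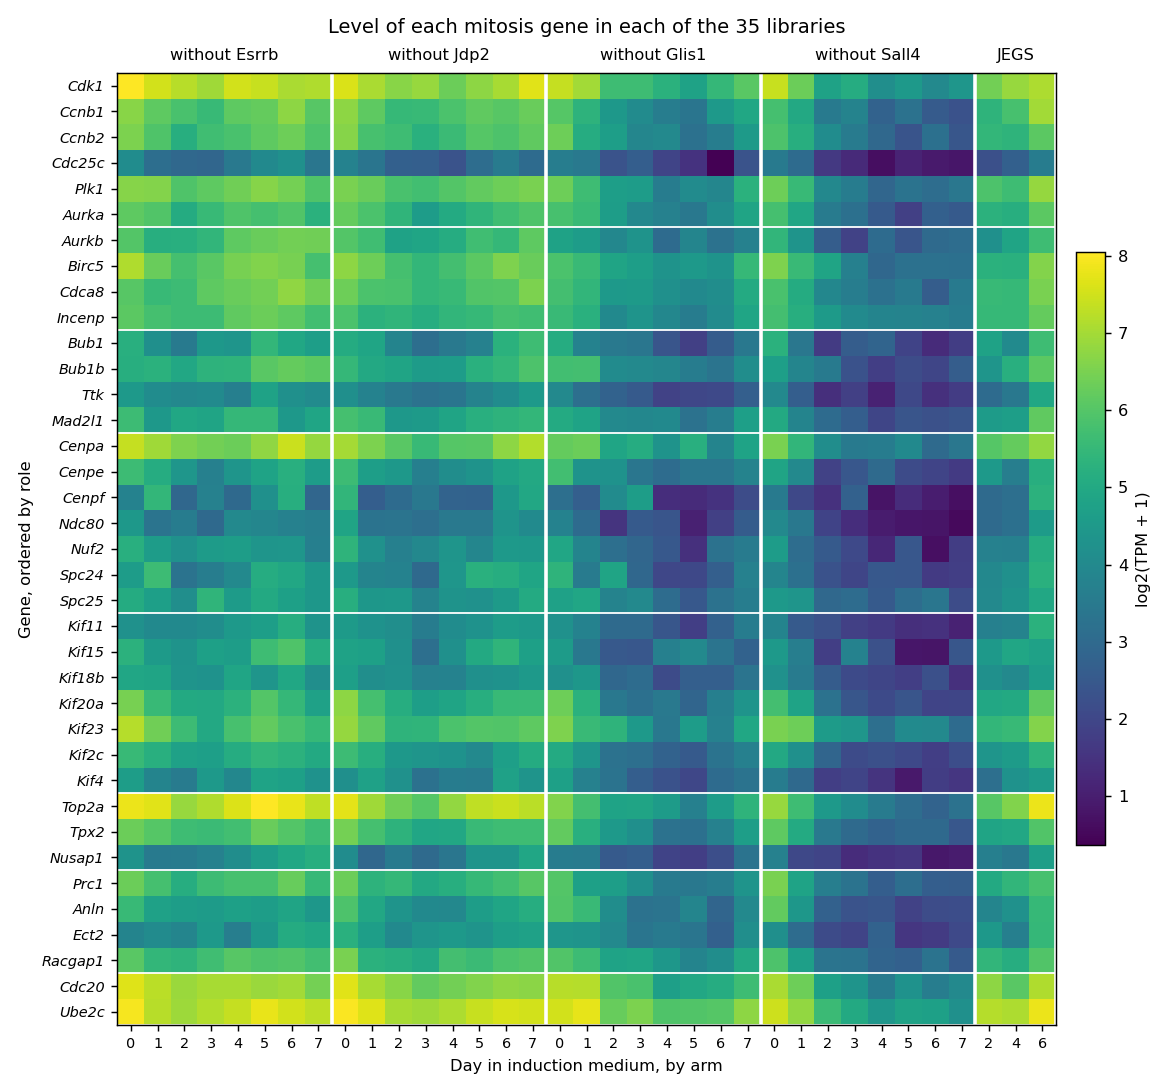
Level of each of the 37 genes (rows, ordered by role) in each of the 35 libraries (columns, by arm and day), as log2(TPM + 1) on the colour scale. Dark columns fill the arm without Sall4 from day 2 on and the arm without Glis1 on days 4 to 6, while the day 0 columns are bright in all 4 leave-out arms.

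Among the genes of mitotic entry, Cdk1 is the kinase that starts mitosis. Cdk1 was at 263, 182, 146, 123, 181, 169, 132 and 138 TPM on days 0 to 7 without Esrrb, and at 193, 133, 102, 116, 79.3, 106, 129 and 208 TPM without Jdp2. For Cdk1 the levels were 165, 125, 49.6, 49.8, 37.4, 26.7, 43.4 and 66.02 TPM without Glis1 and 168, 78.8, 26.9, 33.97, 16.7, 21.9, 14.6 and 19.9 TPM without Sall4. In JEGS, Cdk1 was at 84.4, 114 and 137 TPM on days 2, 4 and 6. From day 1 on, every library without Sall4 was below every library without Esrrb, and the ranges overlap only through day 0 without Sall4. Over the 8 days the difference between both arms was 1.98 ± 0.25 log2 units (estimate ± SE, edgeR quasi-likelihood test, adjusted p = 1.57e-07). The log2 differences given for the genes that follow are of the same pair of arms unless another is named.

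Ccnb1 encodes cyclin B1, the partner of Cdk1, and had the largest difference of this role between the arms without Esrrb and without Sall4. Ccnb1 was at 102, 69.6, 56.6, 45.9, 70.1, 73.7, 106 and 64.5 TPM on days 0 to 7 without Esrrb, and at 106, 70.2, 44.98, 45.1, 57.5, 71.1, 65.6 and 77.02 TPM without Jdp2. For Ccnb1 the levels were 64.4, 39, 20.8, 15.9, 11.3, 9.29, 21.9 and 29.7 TPM without Glis1 and 53.7, 31.2, 10.3, 12.8, 5.84, 8.67, 4.99 and 3.97 TPM without Sall4. In JEGS, Ccnb1 was at 39.99, 55.4 and 125 TPM on days 2, 4 and 6. The libraries without Sall4 were below all libraries without Esrrb from day 1 on. Over all days the arms without Esrrb and without Sall4 differed by 2.29 ± 0.30 log2 units (edgeR, adjusted p = 4.38e-07).

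Ccnb2 encodes cyclin B2, and its difference was the smallest of this role. Ccnb2 was at 91.8, 60.5, 35.05, 50.1, 56.8, 68.8, 80.9 and 58.6 TPM on days 0 to 7 without Esrrb, and at 98.6, 55.3, 49.5, 37.1, 47.6, 63.4, 58.5 and 71.2 TPM without Jdp2. For Ccnb2 the levels were 80.1, 34.1, 24.4, 13.9, 14.6, 8.48, 11.2 and 22.2 TPM without Glis1 and 58.8, 35.6, 16.2, 10.8, 6.81, 4.19, 8.18 and 4.39 TPM without Sall4. In JEGS, Ccnb2 was at 42.9, 40.4 and 68.7 TPM on days 2, 4 and 6. The arms without Esrrb and without Sall4 overlap on days 0 and 1 of the latter and are apart from day 2 on. Its log2 difference was 1.98 ± 0.29 (edgeR, adjusted p = 2.37e-06).

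Plk1 is a kinase of mitotic entry, centrosomes and cytokinesis. Plk1 was at 99.5, 97.3, 60.02, 70.2, 82.1, 98.9, 85.2 and 59.6 TPM on days 0 to 7 without Esrrb, and at 89.4, 77.05, 56.7, 51.3, 62.3, 71.9, 79.7 and 88.9 TPM without Jdp2. For Plk1 the levels were 81.3, 49.1, 24.5, 23.5, 11.1, 15.7, 13.9 and 37.6 TPM without Glis1 and 81.3, 45.4, 14.5, 10.97, 6.54, 8.71, 7.57 and 9.6 TPM without Sall4. In JEGS, Plk1 was at 59.3, 49.8 and 113 TPM on days 2, 4 and 6. Without Glis1 the day 7 library is above those of days 2 to 6, which is not so without Sall4. The log2 difference between the arms without Esrrb and without Sall4 was 2.13 ± 0.29 (edgeR, adjusted p = 7.68e-07).

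In the chromosomal passenger complex, which corrects wrong attachments at the centromere, Aurkb is the kinase. Aurkb was at 62.7, 35.2, 36.2, 42.1, 69.8, 77.7, 83.5 and 82.3 TPM on days 0 to 7 without Esrrb, and at 62.3, 50.6, 26.9, 28.6, 33.8, 50.5, 43.5 and 69.2 TPM without Jdp2. For Aurkb the levels were 26.8, 23.6, 14.2, 18.8, 7.34, 13.51, 8.51 and 12.3 TPM without Glis1 and 41.7, 19.2, 5.22, 2.65, 7.27, 4.27, 7.09 and 7.56 TPM without Sall4. In JEGS, Aurkb was at 17.5, 27.6 and 49.6 TPM on days 2, 4 and 6. Without Esrrb the libraries of days 4 to 7 are all above that of day 0, whereas without Sall4 every later library is below day 0. The log2 difference between these arms was 2.69 ± 0.31 (edgeR, adjusted p = 6.12e-08).

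Incenp, the scaffold of the complex, had the smallest difference of all 37 genes between the arms without Esrrb and without Sall4. Incenp was at 68.5, 54.2, 48.3, 48.2, 70.3, 78.7, 69.03 and 51.4 TPM on days 0 to 7 without Esrrb, and at 57.6, 38.3, 40.8, 34.5, 41.9, 44.3, 53.9 and 50.6 TPM without Jdp2. For Incenp the levels were 46.8, 36.5, 15.2, 19.1, 14, 10.98, 15.9 and 28.5 TPM without Glis1 and 52.7, 35.2, 22.5, 15.6, 13.3, 12.9, 12.5 and 10.97 TPM without Sall4. In JEGS, Incenp was at 44.6, 44.7 and 73.7 TPM on days 2, 4 and 6. The arms without Glis1 and without Sall4 overlap over most of their range. The log2 difference was 1.46 ± 0.22 without Esrrb against without Sall4 (edgeR, adjusted p = 2.31e-06), and 0.11 ± 0.22 without Glis1 against without Sall4 (adjusted p = 0.736).

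In the spindle assembly checkpoint, Bub1b encodes BubR1, which holds back Cdc20. Bub1b was at 35.5, 37.3, 30.3, 39.5, 40.2, 66.8, 74.7 and 67.8 TPM on days 0 to 7 without Esrrb, and at 43.7, 31.2, 27.6, 23.1, 23.3, 37.1, 42.7 and 59.1 TPM without Jdp2. For Bub1b the levels were 51.6, 52.5, 15.7, 14.8, 13.8, 10.99, 9.01 and 16.5 TPM without Glis1 and 24.9, 13.4, 10.6, 3.88, 2.46, 3.41, 2.9 and 5.18 TPM without Sall4. In JEGS, Bub1b was at 19.9, 35.8 and 68.1 TPM on days 2, 4 and 6. All libraries without Esrrb are above all those without Sall4, day 0 included. On the log2 scale they differed by 2.82 ± 0.32 (edgeR, adjusted p = 2.85e-08).

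Mad2l1 encodes Mad2, which also binds Cdc20. Mad2l1 was at 48.02, 21.1, 29.8, 27.6, 43.3, 44.05, 21.2 and 28.5 TPM on days 0 to 7 without Esrrb, and at 54.4, 46.2, 21.2, 22.6, 27.6, 36.2, 39.01 and 43.1 TPM without Jdp2. For Mad2l1 the levels were 32.6, 27.5, 14.7, 14.1, 15.1, 8.63, 11.3 and 24.8 TPM without Glis1 and 31.97, 13.3, 7.37, 5.34, 2.89, 4.25, 3.81 and 4.3 TPM without Sall4. In JEGS, Mad2l1 was at 23.2, 24.3 and 70.6 TPM on days 2, 4 and 6. Only the day 0 library without Sall4 reaches the range of the arm without Esrrb. Its log2 difference between these arms was 1.83 ± 0.26 (edgeR, adjusted p = 1.61e-06), the smallest of the 4 checkpoint genes.

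Among the centromere and kinetochore genes, Cenpa encodes the histone H3 variant that marks the centromere. Cenpa was at 165, 121, 92.3, 84.8, 79.6, 109, 172 and 113 TPM on days 0 to 7 without Esrrb, and at 129, 92.3, 66.5, 45.5, 63.8, 64.6, 106 and 141 TPM without Jdp2. For Cenpa the levels were 74.2, 78.5, 28.4, 33.98, 19, 36.05, 13.2 and 27.3 TPM without Glis1 and 88.5, 41.6, 16.5, 10.5, 11, 15.1, 7.04 and 9.63 TPM without Sall4. In JEGS, Cenpa was at 64.3, 73.6 and 109.9 TPM on days 2, 4 and 6. Its highest level in any library was on day 6 without Esrrb, and the libraries without Sall4 are below that arm's range from day 1 on. The difference came to 2.26 ± 0.31 log2 units (edgeR, adjusted p = 7.36e-07).

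Spc25 is a subunit of the Ndc80 complex, which grips microtubules. Spc25 was at 32.99, 24.9, 16.8, 41.2, 23.1, 31.5, 25.3 and 20.6 TPM on days 0 to 7 without Esrrb, and at 34.9, 20.4, 21.2, 12.9, 18.96, 17.9, 22.4 and 32.3 TPM without Jdp2. For Spc25 the levels were 26.03, 28.9, 12.9, 14.7, 7.39, 4.61, 8.57 and 11.3 TPM without Glis1 and 21.3, 19.9, 6.84, 7.44, 4.79, 7.69, 9.46 and 3.46 TPM without Sall4. In JEGS, Spc25 was at 14.7, 18.8 and 30.5 TPM on days 2, 4 and 6. Here the arms overlap on days 0 and 1 without Sall4, and the difference of 1.48 ± 0.26 log2 units was the smallest of this role (edgeR, adjusted p = 2.36e-05).

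Of the kinesins, the motor proteins of the spindle, Kif15 had the largest difference of all 37 genes between the arms without Esrrb and without Sall4. Kif15 was at 38.6, 22.6, 18.8, 25.5, 23.8, 49.6, 60.5 and 33.4 TPM on days 0 to 7 without Esrrb, and at 26.9, 25.5, 17.8, 7.99, 17.6, 31.5, 40.9 and 25.5 TPM without Jdp2. For Kif15 the levels were 23.1, 9.95, 4.68, 4.45, 12.2, 14.7, 9.04 and 5.82 TPM without Glis1 and 21.6, 11.6, 2.45, 12.7, 3.83, 0.77, 0.74 and 4.37 TPM without Sall4. In JEGS, Kif15 was at 21.4, 29.1 and 26.1 TPM on days 2, 4 and 6. In TPM the levels without Sall4 were uneven, with day 3 above days 2 and 4. The reads behind them were few, with 15 on day 2, 17 on day 3, 7 on day 4, 5 on day 5 and 2 on day 6. They did not follow the TPM, since days 2 and 3 had similar reads but 2.45 and 12.7 TPM. In JEGS, too, the reads of Kif15 went from 57 on day 4 to 106 on day 6 while the TPM fell. The edgeR test used the reads, so the TPM course can differ from what was tested. The log2 difference was 2.90 ± 0.37 (edgeR, adjusted p = 2.44e-07).

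Kif23, a motor of the central spindle, had the smallest difference of the kinesins. Kif23 was at 145, 81.8, 48.3, 30.8, 55.3, 71.9, 55.7 and 44.2 TPM on days 0 to 7 without Esrrb, and at 112, 70.6, 39.7, 40.8, 57.8, 62.3, 61.4 and 69.9 TPM without Jdp2. For Kif23 the levels were 93.97, 46.2, 40.3, 21.8, 9.81, 23.6, 12.4 and 29.8 TPM without Glis1 and 90.1, 80.7, 22.8, 19.9, 7.96, 15.5, 14.7 and 7.37 TPM without Sall4. In JEGS, Kif23 was at 42.3, 45.1 and 97.5 TPM on days 2, 4 and 6. On days 0 and 1 the libraries without Sall4 lie inside the range without Esrrb, and from day 2 on they lie below it. Its log2 difference was 1.53 ± 0.27 (edgeR, adjusted p = 2.49e-05).

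Top2a, in the group of spindle and chromosome structure, encodes the topoisomerase that untangles sister chromatids. Top2a was at 223, 208, 115, 138, 197, 260.01, 219 and 157 TPM on days 0 to 7 without Esrrb, and at 211, 124, 82.9, 63.5, 109.7, 158, 172 and 153 TPM without Jdp2. For Top2a the levels were 94.8, 52.5, 27.2, 27.7, 23.1, 12.2, 23.2 and 39.9 TPM without Glis1 and 116, 49.5, 21.4, 16.3, 10.9, 7.68, 5.99 and 8.63 TPM without Sall4. In JEGS, Top2a was at 65.4, 95.7 and 224 TPM on days 2, 4 and 6. The level on day 5 without Esrrb was above that on day 0, and without Glis1 and without Sall4 no library after day 1 was above 39.9 TPM. The fitted difference was 2.86 ± 0.33 log2 units without Esrrb against without Sall4 (edgeR, adjusted p = 5.04e-08) and 2.23 ± 0.32 without Esrrb against without Glis1 (adjusted p = 1.56e-06).

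Tpx2 activates Aurora A on spindle microtubules. Tpx2 was at 78.6, 64.2, 49.3, 47.4, 52.2, 76.6, 62.3 and 48.9 TPM on days 0 to 7 without Esrrb, and at 86.2, 54, 39.2, 28.8, 30.3, 46.6, 49.1 and 49.2 TPM without Jdp2. For Tpx2 the levels were 72.2, 35.8, 22.02, 17.3, 8.66, 8.12, 12.3 and 24.4 TPM without Glis1 and 69.9, 32.3, 10.2, 7.09, 5.91, 6.93, 7.01 and 4.49 TPM without Sall4. In JEGS, Tpx2 was at 27.9, 30.6 and 61.7 TPM on days 2, 4 and 6. The day 0 library without Sall4 is inside the range without Esrrb and the later ones are below it. The log2 difference was 2.11 ± 0.27 (edgeR, adjusted p = 2.41e-07).

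In cytokinesis, Ect2 activates RhoA at the division plane. Ect2 was at 13.3, 15.9, 13.47, 21.3, 11.5, 20.6, 33.2 and 29.6 TPM on days 0 to 7 without Esrrb, and at 36.9, 24.4, 15.2, 19.9, 21.3, 19.1, 24.2 and 26.01 TPM without Jdp2. For Ect2 the levels were 20.3, 19.3, 14.9, 9.13, 10.3, 9.26, 5.65 and 17.1 TPM without Glis1 and 17.1, 7.52, 3.31, 2.81, 5.83, 2.02, 2.26 and 3.19 TPM without Sall4. In JEGS, Ect2 was at 20.96, 11.7 and 43.5 TPM on days 2, 4 and 6. On day 0 it was higher without Sall4 than without Esrrb, and lower on each later day. The difference came to 2.15 ± 0.31 log2 units (edgeR, adjusted p = 1.93e-06), the largest of the 4 cytokinesis genes.

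Anln encodes anillin, which scaffolds the contractile ring. Anln was at 45.95, 26.1, 24.04, 22.9, 25.4, 23.9, 28.1 and 20.7 TPM on days 0 to 7 without Esrrb, and at 58.4, 30.2, 19.1, 15.1, 14.5, 23.9, 28.4 and 34.3 TPM without Jdp2. For Anln the levels were 60.8, 46.2, 16.5, 8.6, 8.96, 13.4, 6.31 and 14.6 TPM without Glis1 and 72.1, 20.4, 5.73, 4.01, 4.32, 2.68, 3.4 and 3.58 TPM without Sall4. In JEGS, Anln was at 13.4, 18.2 and 44.4 TPM on days 2, 4 and 6. The day 0 level without Sall4 was the highest of all 35 libraries, and that arm's later libraries were below every library without Esrrb. Over all days the arms without Esrrb and without Sall4 differed by 1.53 ± 0.32 log2 units (edgeR, adjusted p = 0.000267).

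Of the partners of the anaphase-promoting complex, Cdc20 is the activator that starts anaphase. Cdc20 was at 200.3, 150.5, 117, 131, 129, 118, 126 and 85.1 TPM on days 0 to 7 without Esrrb, and at 208, 129, 101, 73.2, 84.3, 95.8, 107 and 104 TPM without Jdp2. For Cdc20 the levels were 147, 144, 61.02, 55.9, 25.1, 30.3, 33.99 and 49.9 TPM without Glis1 and 135, 81.05, 25.6, 19.4, 10.4, 18.6, 11.2 and 14.8 TPM without Sall4. In JEGS, Cdc20 was at 105, 66.5 and 139.7 TPM on days 2, 4 and 6. The libraries without Sall4 were below all those without Esrrb from day 1 on. The log2 difference was 2.08 ± 0.24 (edgeR, adjusted p = 5.56e-08).

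Ube2c encodes the ubiquitin-conjugating enzyme that works with that complex. Ube2c was at 243, 149, 121, 141, 165, 221, 182 and 153 TPM on days 0 to 7 without Esrrb, and at 253, 200.3, 130.01, 123, 137, 169, 191 and 181 TPM without Jdp2. For Ube2c the levels were 184, 215, 75.7, 91.8, 60.5, 61.6, 63.9 and 105 TPM without Glis1 and 174, 109.6, 47.6, 31.7, 19.9, 26.5, 25.4 and 17.8 TPM without Sall4. In JEGS, Ube2c was at 144, 137 and 223 TPM on days 2, 4 and 6. Without Glis1 it was higher on day 1 than on day 0, and it was lowest on days 4 to 6. The fitted difference was 1.76 ± 0.25 log2 units without Esrrb against without Sall4 (edgeR, adjusted p = 1.13e-06).

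The pairwise comparisons of the 4 leave-out arms, which ask what lacking 1 factor rather than another goes with, used all 8 days with day as a term. Each arm enters 3 of them, so they share libraries. All 37 genes were higher without Esrrb than without Sall4, with a median log2 difference of 2.10 (range 1.46 to 2.90), where 22.2% of the 18135 genes tested were called higher and the median over them was -0.01. All 37 were also higher without Jdp2 than without Sall4 (median 1.91, range 1.05 to 2.40), with 18.2% of all genes called higher. No library left out in turn changed either count of 37, and without the day term 36 passed in each.

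Without Esrrb against without Glis1, 35 of 37 were higher (median log2 difference 1.26, range 0.59 to 2.23), against 20.4% of all genes. The other two were Mad2l1 (0.59 ± 0.25, adjusted p = 0.0546 with edgeR) and Anln (0.62 ± 0.31, adjusted p = 0.106 with edgeR). Without the day term 22 were called. Without Jdp2 against without Glis1, 34 of 37 were higher (median 1.02, range 0.67 to 1.77), against 17.9% of all genes. Cdc25c, Spc24 and Anln did not pass, with edgeR adjusted p-values of 0.183, 0.136 and 0.0745. Without the day term 13 were called.

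The arms without Glis1 and without Sall4 were closer. All 37 estimates were higher without Glis1 (median log2 difference 0.82, range 0.11 to 1.42), and 19 of 37 passed, against 16.2% of all genes. By role, 3 of 6 genes of mitotic entry, 3 of 4 of the checkpoint, 5 of 7 kinesins, 3 of 4 cytokinesis genes, both partners of the anaphase-promoting complex, 2 of 7 kinetochore genes, 1 of 3 of spindle and chromosome structure and 0 of 4 of the passenger complex passed. At an unadjusted p under 0.05 there were 28. Bub1b had the largest difference (1.42 ± 0.31, edgeR, adjusted p = 0.000683). This count turns on single libraries: 32 passed without the day 0 library of the arm without Sall4 and 12 without its day 7 library. It was 31 with day 0 left out of all arms, 11 with day 7 left out, 33 on days 3 to 7 alone and 6 without the day term.

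No gene passed between the arms without Esrrb and without Jdp2 in edgeR (0 of 37, and 0 at an unadjusted p under 0.05). DESeq2 and limma also called 0. Of all 18135 genes tested in edgeR, 1552 were called higher (8.56%) and 2443 lower. The median log2 difference was 0.21, the estimates ranged from -0.13 to 0.54, and their SE from 0.21 to 0.37, so a difference of this size was not detectable here, which does not show that the arms are alike. The estimate was below 0 for Mad2l1, Ndc80, Anln, Ect2 and Ube2c. On days 3 to 7 alone 2 genes passed as higher without Esrrb.

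Day by day, most genes kept 1 order against the arm without Sall4: 32 genes were higher without Esrrb and 31 higher without Jdp2 on each of the 8 days. Against the arm without Glis1 the counts were 24 and 22, and 15 genes were higher without Glis1 than without Sall4 on every day. For 3 genes the arm without Esrrb was above the arm without Jdp2 on every day. Since all arms began high, the whole ranges over 8 days were apart for few genes: 4 without Esrrb against without Glis1, 2 without Esrrb against without Sall4 and 1 without Jdp2 against without Glis1. The shares of all genes so ordered or so apart were not computed.

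**Figure D3:**
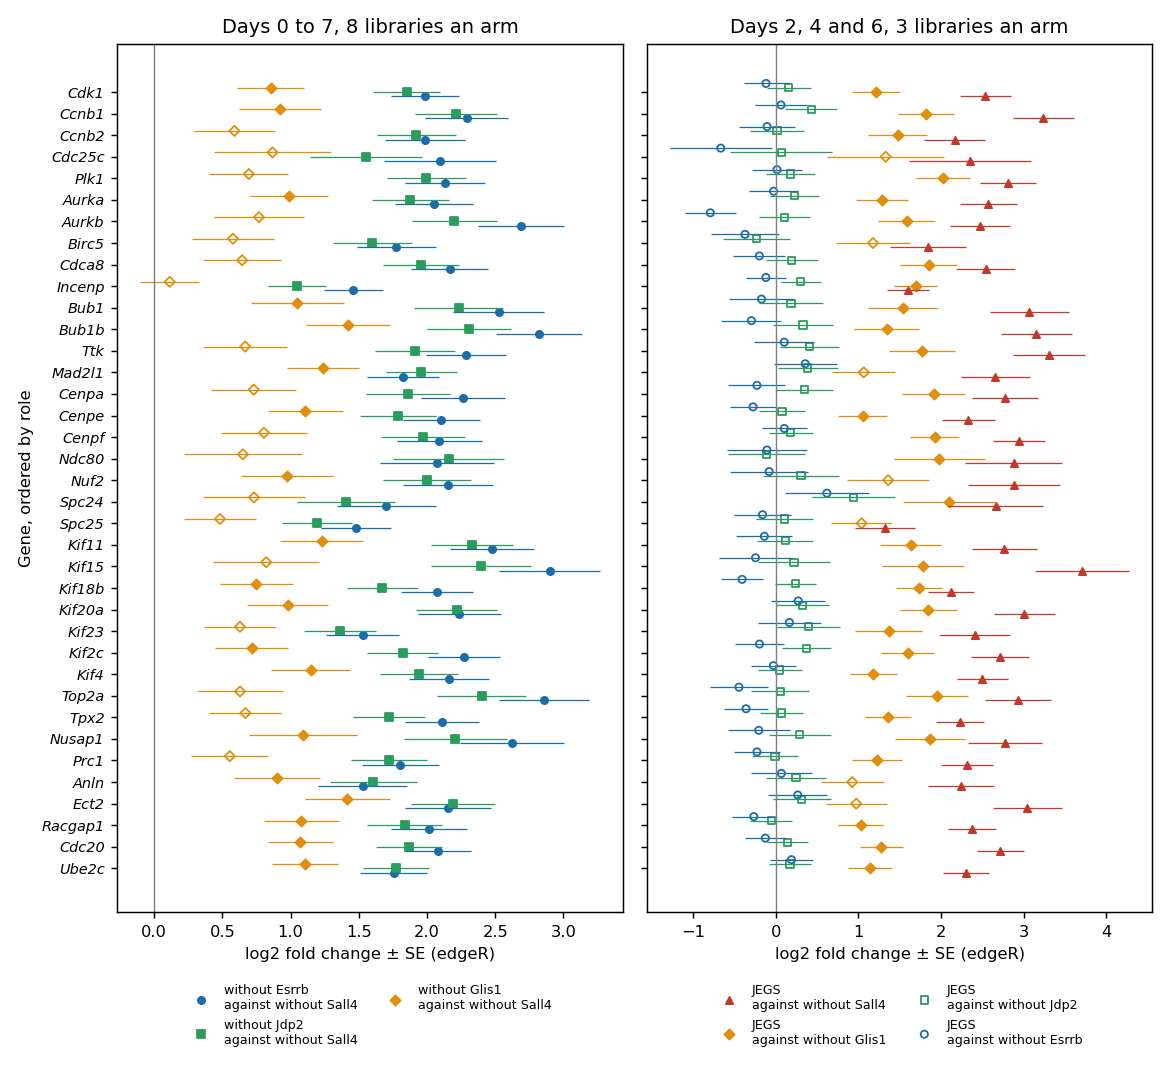
log2 fold change ± SE (horizontal axis) of each of the 37 genes (vertical axis, ordered by role) between arms over days 0 to 7 (left) and for JEGS against each leave-out arm on days 2, 4 and 6 (right). Filled symbols passed at an adjusted p under 0.05 and open symbols did not. Against the arm without Sall4 the estimates of JEGS span 1.32 to 3.71, and those of JEGS against the arm without Esrrb lie around 0, from -0.79 to 0.62.

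JEGS, with all 4 factors, was compared with each leave-out arm over days 2, 4 and 6 (3 libraries an arm, 16603 genes tested). All 37 genes were higher in JEGS than without Sall4 (median log2 difference 2.66, range 1.32 to 3.71), against 11.9% of all genes. Each of the 3 JEGS libraries was above each of the 3 without Sall4 for all 37. The share of all genes with libraries so apart was not computed. Kif15 had the largest difference (3.71 ± 0.57, edgeR, adjusted p = 0.000308) and Spc25 the smallest (1.32 ± 0.36, edgeR, adjusted p = 0.0145). The Kif15 values without Sall4 rest on 15, 7 and 2 reads on days 2, 4 and 6. Cdk1 differed by 2.54 ± 0.31 and Ccnb1 by 3.24 ± 0.37.

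Against the arm without Glis1, 30 of 37 were higher in JEGS (median 1.47, range 0.92 to 2.10), against 9.86% of all genes. The 3 libraries of each arm did not overlap for 30 genes, and the share of all genes with libraries so apart was again not computed. Cdc25c, Birc5, Mad2l1, Nuf2, Spc25, Anln and Ect2 did not pass. The count was 16 without the day 6 JEGS library and 17 without the day 6 library of the arm without Glis1. It was 10 with day 4 left out of all arms and 16 with day 6 left out.

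Against the arms without Esrrb and without Jdp2 no gene passed in edgeR. For JEGS against without Esrrb, 670 of all 16603 genes tested were called higher (4.04%) and 431 lower. The median of the 37 was -0.13 (range -0.79 to 0.62, SE 0.24 to 0.62), with 1 gene at an unadjusted p under 0.05. That gene is Aurkb, with -0.79 ± 0.31 and an edgeR adjusted p = 0.154. The estimate was above 0 for Ccnb1, Plk1, Ttk, Mad2l1, Cenpf, Spc24, Kif20a, Kif23, Anln, Ect2 and Ube2c. Tested without the low-count filter, 1 gene passed as lower in JEGS. For JEGS against without Jdp2, 136 of all genes tested were called higher (0.819%) and 332 lower. The median of the 37 was 0.18 (range -0.23 to 0.94, SE 0.24 to 0.62), with 0 at an unadjusted p under 0.05. The estimate was below 0 for Birc5, Ndc80, Prc1 and Racgap1. DESeq2 and limma called 0 of 37 in both comparisons. On day 6 JEGS was the highest of the 5 arms for 24 of 37 genes, on day 2 for 7 and on day 4 for 3. These ranks rest on 1 library an arm, and the share of all genes highest in JEGS was not computed.

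How the genes moved over days 0 to 7 was tested as a linear slope in each leave-out arm. Without Sall4, 35 of 37 fell, with a median slope of -0.48 log2 units per day (range -0.72 to -0.24), against 5.57% of all genes called with a negative slope. Ndc80, which links kinetochores to microtubules, had the steepest slope (-0.72 ± 0.13, edgeR, adjusted p = 0.000591). Spc24 and Spc25 did not pass, with slopes of -0.29 ± 0.12 (edgeR, adjusted p = 0.119) and -0.24 ± 0.09 (adjusted p = 0.0721). With the day 0 library of this arm left out, 13 of 37 passed, and the count over all genes in that fit is not given here. Days 5 to 7 against days 1 to 3 called 3 of 37, where 58 of all 18135 genes were called higher and 23 lower.

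Without Glis1, 15 of 37 fell (median -0.21 per day, range -0.38 to -0.08), against 4.01% of all genes, and 33 had an unadjusted p under 0.05. They are Cdk1, Ccnb2, Cdc25c, Bub1b, Cenpa, Cenpe, Cenpf, Kif18b, Kif20a, Kif23, Kif4, Tpx2, Anln, Ect2 and Cdc20. Anln had the steepest slope (-0.38 ± 0.09, edgeR, adjusted p = 0.00492) and Birc5, whose product survivin belongs to the passenger complex, the shallowest (-0.08 ± 0.07, adjusted p = 0.562). The levels of this arm were back up on day 7, which a line does not follow. The count was 0 without the day 0 library of this arm, 4 without that of day 1, 8 without day 4, 6 without day 5, 4 without day 6 and 33 without day 7. It was 9 without the day 5 library of the arm without Jdp2, and 3 with day 0 left out of all arms. DESeq2 called 9 and limma 4, a slope on log2(day + 1) called 33, and days 5 to 7 against days 1 to 3 called 0.

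Without Esrrb and without Jdp2 no slope passed in edgeR. The median slope was -0.01 per day without Esrrb (range -0.15 to 0.18, 4 at an unadjusted p under 0.05). There 1902 of all 18135 genes were called with a negative slope (10.5%) and 1580 with a positive one. Without Jdp2 the median slope was -0.02 per day (range -0.14 to 0.17, 1 at an unadjusted p under 0.05). There 815 of all genes were called with a negative slope (4.49%) and 941 with a positive one. DESeq2 and limma called 0 in both arms. A slope near 0 does not follow the dip and partial rise seen in the summed levels of single libraries of these arms. Days 5 to 7 were above days 1 to 3 for 3 of 37 genes in each of these arms. Of all genes, 5.98% were called higher in that way without Esrrb and 3.48% without Jdp2. With 3 of 37 genes called, this test does not show such a rise of the 37 as a group. With day 0 left out of all arms, 4 genes had a positive slope without Esrrb and 1 without Jdp2 (1 in each with only that arm's own day 0 library left out), and on log2(day + 1) 2 and 1 had a negative one. The estimate was above 0 without Esrrb for Cdc25c, Aurkb, Cdca8, Bub1, Bub1b, Cenpa, Cenpe, Cenpf, Spc24, Kif11, Kif15, Kif4, Nusap1, Ect2 and Racgap1. Without Jdp2 it was above 0 for Plk1, Aurkb, Cdca8, Incenp, Bub1, Bub1b, Ttk, Cenpa, Cenpf, Spc24, Spc25, Kif11, Kif15, Kif18b, Top2a and Nusap1.

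The difference in slope among the 4 arms was tested in its own right, and 30 of 37 genes passed (edgeR F test on 3 degrees of freedom), against 8.96% of all genes. Ttk, Mad2l1, Nuf2, Spc24, Spc25, Kif20a and Kif2c did not. This count rests much on 1 library: 9 passed without the day 0 library of the arm without Sall4, and limma called 13.

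**Figure D4:**
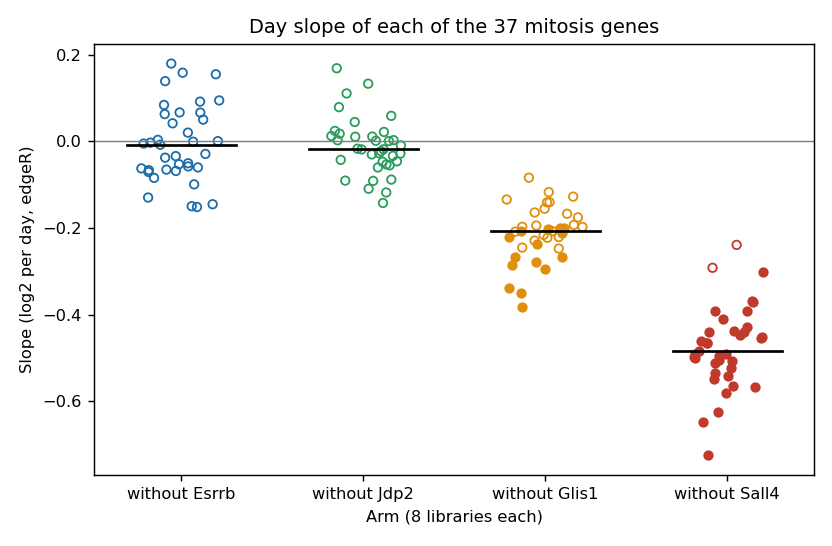
Linear slope over days 0 to 7 (vertical axis, log2 units per day) of each of the 37 genes in the 4 leave-out arms (horizontal axis, 8 libraries each). Filled points passed at an adjusted p under 0.05, open points did not, points are spread sideways at random, and the black line is the median, which is -0.48 without Sall4 and -0.21 without Glis1.

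The first day in the medium was compared over the 4 leave-out arms together. All 37 estimates were lower on day 1 than on day 0 (median log2 difference -0.77, range -1.17 to -0.25), but 1 gene passed in edgeR, against 6.32% of all genes called lower, and 13 had an unadjusted p under 0.05. That gene was Prc1, a microtubule bundler of the central spindle (-1.17 ± 0.38, edgeR, adjusted p = 0.035). DESeq2 called 1, limma and total-count scaling 0, and the test without a low-count filter 12. Leaving out single libraries gave 0 to 8: 0 without the day 1 library of the arm without Esrrb, without that of the arm without Jdp2 or without the day 0 library of the arm without Sall4, and 8 without the day 0 library of the arm without Esrrb. It was 7 without the day 1 library of the arm without Sall4, 2 without its day 6 library and 2 without the day 0 library of the arm without Jdp2. It was 0 with day 3 or day 4 left out of all arms.

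Other genes of the cell cycle were counted in lists by role. Of 46 other mitosis genes, 43 were higher without Esrrb than without Sall4 and 0 lower (median log2 difference 1.88). Espl1, the separase that cuts cohesin, differed by 2.80 ± 0.36 (edgeR, adjusted p = 2.84e-07), Ska1, a kinetochore protein, by 2.60 ± 0.47, the kinase Melk by 2.51 ± 0.38, and Sgo1, which guards centromeric cohesin, by 2.49 ± 0.37. Without Glis1 against without Sall4, 16 of the 46 were higher and 0 lower (median 0.65), and without Esrrb against without Jdp2 1 was higher and 1 lower (median 0.21). Without Sall4 39 of 46 had a negative slope over the days.

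Of 34 genes of DNA replication and S phase, 31 were higher without Esrrb than without Sall4 and 0 lower (median 1.58). Uhrf1, which guides maintenance methylation of DNA, differed by 2.64 ± 0.23 (edgeR, adjusted p = 3.41e-10), the helicase subunits Mcm3 and Mcm6 by 2.58 ± 0.25 and 2.51 ± 0.25, and the DNA ligase Lig1 by 2.48 ± 0.24. The list's median slope without Sall4 was -0.25 per day, with 22 of 34 called lower, beside -0.48 and 35 of 37 for the mitosis genes. Without Esrrb against without Jdp2, 9 of the 34 were higher (median 0.41) and none lower, in edgeR.

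The summed level of the 37 mitosis genes was also set against that of the 34 replication genes in each library. The ratio was highest on day 0 in each leave-out arm, at 1.44 without Esrrb, 1.41 without Jdp2, 1.73 without Glis1 and 1.30 without Sall4. Its lowest values were 0.742 on day 4 without Esrrb, 0.898 on day 3 without Jdp2, 0.675 on day 6 without Glis1 and 0.453 on day 4 without Sall4. In JEGS it was 0.855, 0.812 and 0.950. The arm without Sall4 had the lowest ratio on each of the 8 days. This ratio has 1 library a point and no test.

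**Figure D5:**
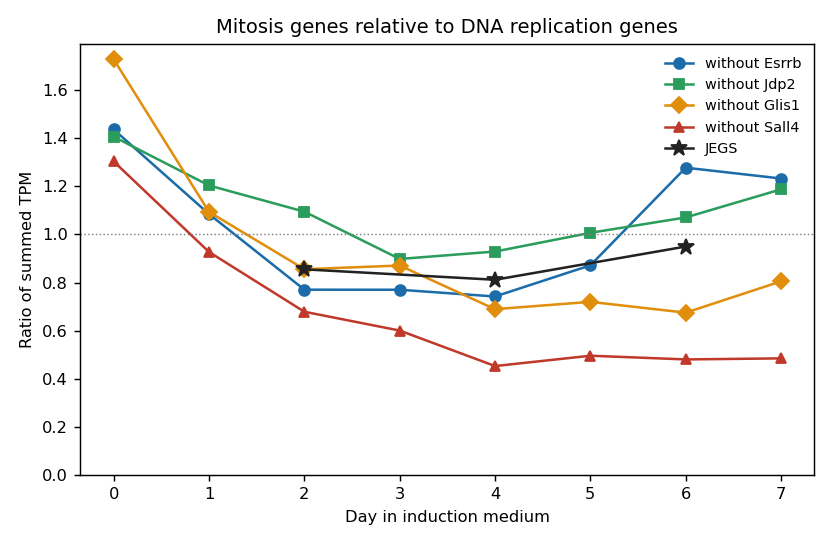
Ratio of the summed TPM of the 37 mitosis genes to that of 34 DNA replication genes (vertical axis) by day in induction medium (horizontal axis), with 1 point per library, and the dotted line at a ratio of 1. Each leave-out arm starts above 1, and the arm without Sall4 is lowest on each day, with 0.453 on day 4.

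In this comparison 22.2% of all genes were called higher and 24.8% lower, beside which the next counts stand. Of 22 regulators of these genes, 15 were higher and 2 lower without Esrrb than without Sall4 (median 0.69). The repressors E2f7 and Rbl1 differed by 2.47 ± 0.39 and 1.61 ± 0.23, the activator E2f2 by 1.85 ± 0.35, and Rb1, the retinoblastoma protein that holds E2F factors, by -1.47 ± 0.24 (edgeR, adjusted p = 1.23e-05). Of 11 inhibitors of cyclin-dependent kinases and of mitotic entry, 6 were higher and 3 lower (median 0.62), and 3 of 11 is near the share of all genes called lower. Fbxo5, the Emi1 inhibitor of the anaphase-promoting complex, differed by 2.65 ± 0.39, Pkmyt1, the kinase that restrains Cdk1, by 1.90 ± 0.21, the stress gene Gadd45a by 1.48 ± 0.19, and Cdkn2b, the p15 inhibitor of Cdk4 and Cdk6, by -1.97 ± 0.26 (edgeR, adjusted p = 4.92e-07). Of 8 genes of G1 cyclins and kinases with Myc family members, 4 were higher and 2 lower (median 0.23), and 2 of 8 is near that share as well. Mycn differed by 3.18 ± 0.37, Cdk2 by 1.60 ± 0.17, Cdk4 by 0.93 ± 0.09 and the cyclin Ccnd3 by -0.85 ± 0.14.

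The 37 genes tracked each other over the 35 libraries. The Pearson r of a gene with the mean of the other 36 on log2(CPM + 1) had a median of 0.965, and it was highest for Bub1 (0.986). It was lowest for Spc24 (0.864), Spc25 (0.911) and Cdc25c (0.919). Spc24 was at 8.77 to 48.9 TPM without Esrrb and at 2.21 to 13.4 TPM without Sall4. Cdc25c, the least abundant of these, was at 6.47 to 17.5 TPM and at 0.58 to 10.4 TPM in the same arms. The 10 genes outside the list most like the mean of the 37, of 11545 screened at a mean of 5 CPM or more, were Ncapd2 (r = 0.982), Ccna2 (0.977), Tubb5 (0.976), Cdca3 (0.975), Kif22 (0.974), Tacc3 (0.972), Smc4 (0.971), Dlgap5 (0.968), Hmmr (0.968) and Hnrnpa1 (0.968). The points are libraries that share arms and days, so these values are descriptions.

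Other measures moved with the arms. A marker is counted here as above 1 TPM in an arm if any 1 library of that arm was above it. Fibroblast markers summed to 6743 to 12450 TPM on day 0 and to medians of 1553 TPM without Esrrb, 3549 without Jdp2, 1502 without Glis1 and 3088 without Sall4, with all 10 markers above 1 TPM in each arm. Epithelial markers had medians of 240.6, 673.9, 219.8 and 129.1 TPM in the same order and 272.5 TPM in JEGS, with 6 of 6 above 1 TPM in each arm. Endothelial markers ranged from 4.05 to 11.2 TPM without Sall4 (3 of 6 above 1 TPM, Tie1 at 0) and from 8.86 to 85.3 TPM without Esrrb (6 of 6). Myeloid markers ranged from 20.7 to 57.9 TPM without Sall4 (8 of 8 above 1 TPM) and from 7.87 to 29.3 TPM without Esrrb (6 of 8), and in JEGS Adgre1 was at 0. Red blood cell markers reached 281.6 TPM without Glis1, 213.7 without Jdp2, 74.7 without Sall4, 52.1 in JEGS and 44.7 without Esrrb, with Hbb-bt and Hbb-bs at 0 in every library of these arms except the one without Jdp2. The Esrrb transcript was at 4292 to 7451 TPM without Glis1 and at 5292 to 7368 TPM without Sall4, the arms with the lowest mitosis genes, and at 594 to 2877 TPM without Jdp2 and 998 to 2746 TPM in JEGS. The part of these markers, of the Esrrb level and of depth in the results was not tested.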

How the data were processed

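RNA-seq libraries were processed with bcl2fastq, Bowtie2 and RSEM on mm10, per the submitters' processing notes; versions and annotation release are not given in the sources used here. The authors deposited 1 RSEM table of 54752 genes per library, with estimated counts (expected counts, 4.99% of them not whole), TPM and FPKM columns, per the file headers; FPKM was not used. Symbols were matched for 54723 genes by Ensembl identifier. RSEM splits reads that fit several genes. Arms and days come from the sample titles; the treatment label names all 4 factors for each sample, against the titles, and the factor levels followed the titles. The labels name a pair of library kits without saying which library had which.

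Expected counts were rounded and fitted with edgeR 4.0.16 (R 4.3.3; TMM, a minimum of 1 CPM in 3 libraries, trended dispersion, two-sided quasi-likelihood F test, Benjamini-Hochberg adjustment over all genes of a comparison, threshold 0.05). Pairwise arm comparisons and day 1 against day 0 used 32 libraries with arm and day as factors, JEGS comparisons the 15 libraries of days 2, 4 and 6, and slopes the 32 libraries with a linear day term per arm. Day is thus the block that pairs libraries across arms, and pairs are taken from the labels' days. The code was tested on simulated counts. Alternatives were DESeq2 1.42.0, other scalings, no filter, limma 3.58.1 on log2(TPM + 1), no day term, all 35 libraries, other day codings, and each library or day left out, where genes and dispersion trend of the full fit were kept. Members, lists and tests were chosen with earlier results of these data known. Levels in every library are given for Cdk1, Ccnb1, Plk1, Aurkb, Top2a and Cdc20 and for the genes of each role with the largest and smallest difference without Esrrb against without Sall4; up to 4 genes past the threshold with the largest difference there are named per list. Also named are genes whose sign differed from most and the 3 least alike.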

Additional observations from a re-analysis of the deposited data

Results flagged for a closer look

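In 28 groups of 8 libraries (the summed level and 6 genes, in 4 arms) the highest or lowest library was compared with the others by Dixon's criterion, which chance meets in about 1 group in 20, and 6 groups met it, all on day 0. Cdk1 was at 262.8 TPM on day 0 without Esrrb, and the next library of that arm was at 181.6 TPM. Cdc20 was at 208.4 TPM on day 0 without Jdp2, with the next at 129.4 TPM. Without Sall4 the day 0 library stood apart in the summed level of the 37 genes (1962 TPM, next 1024), in Cdk1 (168.2 TPM, next 78.8), in Aurkb (41.7 TPM, next 19.2) and in Top2a (116 TPM, next 49.5). The libraries of an arm are days of a course and not replicates of a state. The slope over days differed among the 4 leave-out arms for 30 of the 37 genes in its own test.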

How the results depend on the processing

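The counts without Esrrb and without Jdp2 against without Sall4 were 36 or 37 under each alternative run, and that of JEGS against without Jdp2 was 0. Without the replicate block, that is with no day term, 22 genes passed without Esrrb against without Glis1, 13 without Jdp2 against without Glis1 and 6 without Glis1 against without Sall4; on days 3 to 7 alone, 33 passed in the last of these and 2 without Esrrb against without Jdp2. With no low-count filter 1 passed for JEGS against without Esrrb and 12 for day 1 against day 0, where no scaling beyond total counts and limma-trend gave 0. The slope without Esrrb had 1 call with no scaling beyond total counts, 2 on log2(day + 1) and 3 for days 5 to 7 against days 1 to 3; without Jdp2 the latter gave 1 and 3, without Glis1 33 and 0, and without Sall4 late against early days gave 3. DESeq2 called 9 slopes and limma 4 without Glis1, and limma called 13 slope differences. Leaving out 1 library or 1 day gave ranges of 31 to 37 without Esrrb against without Glis1, 24 to 35 without Jdp2 against without Glis1, 11 to 32 without Glis1 against without Sall4, 10 to 36 for JEGS against without Glis1, 32 to 37 for JEGS against without Sall4, 13 to 36 for slopes without Sall4, 0 to 33 without Glis1, 0 to 4 without Esrrb, 0 to 1 without Jdp2, 9 to 37 for the slope difference and 0 to 8 for day 1 against day 0. Of single genes, Cdk6 had the other sign without Esrrb against without Sall4 with limma on TPM (log2 difference 0.28). With no scaling beyond total counts the median of all genes moved to 0.19 without Esrrb against without Sall4, 0.12 without Jdp2, 0.13 without Glis1 and 0.15 for JEGS against without Sall4 and to 0.11 for day 1 against day 0, with no change in the direction of the calls of mitosis genes. The split of all genes called (higher and lower), where the share of higher calls moved by over 10 percentage points, then was 5349 and 3347 in place of 4025 and 4505 without Esrrb against without Sall4, 4177 and 2474 in place of 3303 and 3084 without Jdp2 against without Sall4, 3708 and 2337 in place of 2944 and 2876 without Glis1 against without Sall4, 2666 and 1442 in place of 1971 and 1983 for JEGS against without Sall4, and 2164 and 1995 in place of 1552 and 2443 without Esrrb against without Jdp2. For slopes it was 1932 and 1428 in place of 1580 and 1902 without Esrrb and 1289 and 536 in place of 941 and 815 without Jdp2. By less than that it turned to 4441 and 3542 from 3704 and 4139 without Esrrb against without Glis1, and to 1966 and 1452 from 1637 and 1667 for JEGS against without Glis1. Few reads limit single genes without Sall4, the deepest arm, where 39 of 296 values had fewer than 10 reads. The cause of these shifts was not tested.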

Other observations

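Some genes outside the lists ran opposite to the mitosis genes over the 35 libraries: Gde1, a glycerophosphodiester phosphodiesterase, had r = -0.97 with their mean, Cox8a, a subunit of cytochrome c oxidase, r = -0.93, and Mrs2, a mitochondrial magnesium channel, r = -0.93. These genes were chosen for this value, among 11545, and the libraries share arms and days.

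Cdkn1a, which encodes the p21 inhibitor of cyclin-dependent kinases and was singled out after its values were seen, was at similar levels on day 0 in the 4 leave-out arms (450.9 to 518.1 TPM) and then parted. Without Glis1 it was at 1139 TPM on day 1, 1700 TPM on day 3 and 1114 TPM on day 7. Without Sall4 it was at 546.2 TPM on day 1 and 990.9 TPM on day 7. Without Esrrb it was at 192.4 TPM on day 5 and 321.1 TPM on day 7, and without Jdp2 at 298.9 TPM on day 7. In JEGS it was at 928.4, 642.6 and 302.3 TPM on days 2, 4 and 6. It was lower without Esrrb than without Sall4 (-1.26 ± 0.24 log2 units, edgeR, adjusted p = 9.18e-05) and higher without Glis1 than without Sall4 (0.76 ± 0.24, adjusted p = 0.0141). Its part in the levels of the mitosis genes was not tested.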
